A study of Mus musculus with 5 samples.

Results

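Serine proteases cut proteins with an active-site serine, and several families of inhibitors hold them in check. The genes described here are defined by a rule on names, made with earlier results of these data known. They are those whose symbol begins with Prss, Tmprss, Klk, Serpin, Spink or Spint and a family number. They came to 162 of the 23420 genes counted, 82 of them proteases (38 Prss, 17 Tmprss and 27 Klk) and 80 in inhibitor families (63 Serpin, 12 Spink and 5 Spint). They were read in RNA sequencing of the luminal layer of the mouse uterus, cut out by laser microdissection from frozen sections around the time an embryo attaches. All mice were wild-type C57BL/6N females, and the day of the vaginal plug was day 1 of pregnancy. Single libraries were made on the mornings of days 3 and 4 and on the evening of day 4. For the morning of day 5 there were 2, from the layer away from the attached embryo (label M pole, the distant layer below) and from the layer that surrounds it (label AM pole). The pole goes with nearness to the embryo, so the differences between these layers below cannot be assigned to either. The libraries of days 3 and 4 carry no pole label, so comparisons with day 5 may mix day and region. Day 5 mice had received the dye Chicago blue by vein to show implantation sites. The dye goes with day 5 and cannot be told apart from it.

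With 1 library per condition no difference has a replicate check and no p-value is given. How many mice went into each of these libraries, and whether the pair from day 5 came from the same animals, is not given in the sources used here. For microdissected groups of other genotypes on day 4 evening the methods describe pools of RNA from 3 separate samples. In order of time, and with the distant layer before the layer around the embryo, the libraries held 15334674, 19529491, 16560409, 16702914 and 19136032 counts. Each run of 5 values below keeps that order. Levels are counts per 1000000 (CPM) scaled by TMM. RPKM, which divides CPM by gene length in kilobases, is named where it is used to compare genes with each other. Sums, shares, and the leading genes of marker and related lists rest on counts or CPM unless RPKM is named. A gene is called higher or lower when its log2 CPM differs by more than 1, that is more than 2-fold. Intervals are exact 95% intervals of a ratio of counts on the log2 scale, and they and the floor of 3 counts cover counting error only. A fold against a library at 0 is computed against 3 counts and is a lower bound.

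Chymotrypsin-like proteases act outside the cell or at its surface, many of them bound to the membrane of epithelial cells. They are made as inactive precursors that must be cut to become active. Serpins trap a protease in an irreversible complex, whereas the Kazal (Spink) and Kunitz (Spint) inhibitors block the active site as tight plugs. In the uterus such enzymes and inhibitors are known from luminal and glandular secretions, and plasmin, kallikreins and membrane-bound proteases have been studied for their action on matrix, junctions and the embryo coat.

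The layer was checked against 7 epithelial markers, which summed to 4476, 4592, 4513, 3498 and 6898 CPM in the 5 libraries. *Epcam*, *Krt8*, *Krt18* and *Cldn7* all had at least 7016 counts in each. The list did not hold still on day 5. *Krt19*, with 15033, 13708, 6997, 708 and 2732 counts, was lower than on day 4 morning in both layers (-4.33 away and -2.27 around), and *Krt8* was lower away (-1.37). *Wnt7a* was higher in both (1.29 and 2.59), and *Epcam* (1.96), *Cdh1* (1.15) and *Cldn7* (1.04) were higher around the embryo. Against the distant layer 5 of the 7 were higher around the embryo, and the part of this in the higher members there was not tested. The library around the embryo differed in what else it held. Of 10 embryo and trophoblast markers, 9 were counted there and *Prl3d1* was at 0, with a sum of 83.5 CPM against 4.61, 12.6, 8.03 and 3.00 CPM in the others, and *Eomes* (609 counts) was the most abundant. *Pou5f1* (68 counts), *Nanog* (10), *Cdx2* (22) and *Gata4* (54) had counts in that library and were at 0 in the other 4. Smooth muscle markers summed to 392 CPM around the embryo against 10.8 to 31.6 CPM elsewhere, led by *Des* with 6090 counts, and all 5 were higher there than away from it. The 9 stromal markers summed to 596, 542, 621, 560 and 397 CPM. By counts *Col3a1* led them in 4 libraries and *Hand2* (70, 79, 102, 389 and 2282 counts) around the embryo. In RPKM *Dcn* was above *Col3a1* in each of these 4 (56.2 against 40, 34.4 against 31.6, 39.6 against 38.7 and 44 against 25.4). The part of these other cells in the results below was not tested. In such bulk samples fewer cells of a type and less RNA per cell cannot be told apart.

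Of the 162 genes, 66 had no count in any library, 96 were counted at least once and 50 passed the filter of a mean of at least 1 CPM over the 5 libraries. Those 50 were 20 proteases and 30 of the inhibitor families. A gene counted in 1 or 2 libraries passes only through them and so had to differ, and the counts of calls below describe these 50 and not the 162. Summed over all members, the proteases came to 596, 849, 2172, 1768 and 3027 CPM and the inhibitor families to 2084, 2424, 2169, 2363 and 2830 CPM. The protease sum was thus lowest on day 3 and highest around the embryo, while the inhibitor sum stayed between 2084 and 2830 CPM. A few genes carried these sums. *Prss23* held 77.8% of all protease counts on day 4 evening, and *Tmprss11d* held 34.4% around the embryo. On the RPKM scale the leading member was *Serpina1e* on day 3 morning (597) and day 4 morning (650), *Prss23* on day 4 evening (524), *Spint2* away from the embryo (400) and *Tmprss11d* around it (509).

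**Figure D1:**
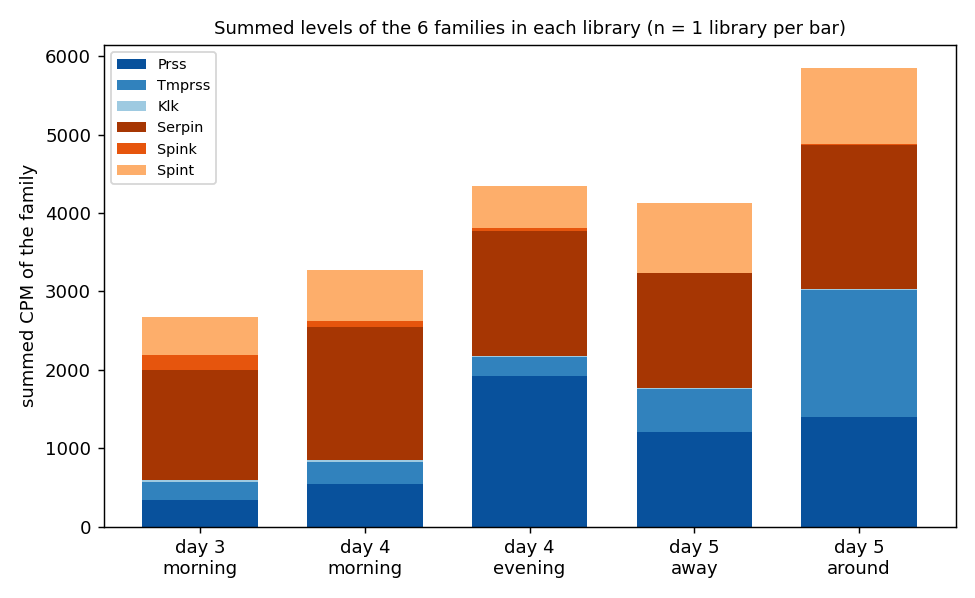
Summed CPM of each of the 6 families in each of the 5 libraries, proteases in blue and inhibitor families in orange and brown. Prss is the largest protease family on day 4 evening at 1919 CPM and Tmprss around the embryo at 1626 CPM, while Spink falls from 195 CPM on day 3 morning to 1.72 CPM away from the embryo.

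The step from day 3 to day 4 morning covers the last day before the uterus receives the embryo. *Serpine2*, *Serping1* and *Prss33* were higher on day 4 morning, and *Spink8*, *Spink12*, *Spink2* and *Klk10* were lower. Of the 50 genes, 10 were higher, against 7.47% of all 12915 genes kept, and 10 were lower, against 11.5%. Each of these counts is 20% of the 50. The median log2 difference was 0.10, and that of all genes kept was 0.00. Among the proteases 5 were higher and 2 lower, and among the inhibitor families 5 were higher and 8 lower. Without a filter, 18 of the 162 members were higher, against 7.2% of all genes, and 16 were lower, against 11.5%.

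From day 4 morning to evening, *Prss23*, *Tmprss11d*, *Prss22*, *Serpinb5* and *Serpinb6c* were higher in the evening. *Serpini1*, *Klk10*, *Spink8* and *Spink12* were lower. In all, 9 of the 50 genes were higher (18%), against 7.21% of genes kept, and 9 were lower, against 6.95%. The median was -0.10. Without a filter, 18 of the 162 members were higher, against 8.25% of all genes, and 15 were lower, against 7.06%.

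From day 4 morning to the day 5 layer away from the embryo, *Prss35*, *Prss12*, *Tmprss2*, *Serping1* and *Spint1* were higher, and *Spink8*, *Serpina1b*, *Serpine2* and *Serpina1e* were lower. There were 14 of 50 genes higher (28%), against 14.9% of genes kept, and 16 lower (32%), against 14.3%. Without a filter, 22 of the 162 members were higher, against 12.2% of all genes, and 25 were lower, against 11.4%. The share higher was then close to that of all genes, so the contrast in higher calls depends on the filter. The median over the 50 was -0.18.

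From day 4 morning to the day 5 layer around the embryo, *Tmprss11d*, *Prss56*, *Prss12*, *Serpinb5*, *Prss22* and *Tmprss4* were higher, and *Serpina1e*, *Serpinf1*, *Serpinb12* and *Spink8* were lower. This comparison had 22 of 50 genes higher (44%), against 20.7% of genes kept, and 14 lower (28%), against 22.6%. The median log2 difference was 0.65, and that of all genes kept was -0.03. The proteases gave 11 of 20 higher and 5 lower, and the inhibitor families 11 of 30 higher and 9 lower. The share lower was close to that of all genes. Without a filter, 31 of the 162 members were higher, against 18.5% of all genes, and 24 were lower, against 16.3%. Both shares were then close to those of all genes, so the contrast in higher calls depends on the filter. Of the 5 comparisons 4 share the day 4 morning library, so a single high or low value in it enters each of them.

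Between the 2 layers of day 5, *Prss56*, *Tmprss11d*, *Serpine2*, *Serpinb5* and *Tmprss4* were higher around the embryo, and *Prss35*, *Tmprss2*, *Serping1*, *Serpina1e* and *Serpinf1* were higher away from it. The layer around the embryo had 19 of 50 members higher (38%), against 13.4% of genes kept, and 11 were lower (22%), against 15%. The higher calls made up 63.3% of the members called, and with total counts in place of TMM they made up 51.7%, 15 against 14. The median log2 difference was 0.28, and that of all genes kept was -0.05. Without a filter, 29 of the 162 members were higher, against 13.3% of all genes, and 20 were lower, against 11.7%. In all 5 libraries together, 19 of the 50 genes had their highest CPM around the embryo, 10 on day 3, 9 on the morning of day 4, 4 on its evening and 8 in the distant layer. Of all genes kept, 28.9% were highest around the embryo, so that library held the most maxima in general, followed by 19.8% on day 4 morning, 19.5% on day 3, 17.2% in the distant layer and 14.7% on day 4 evening.

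**Figure D2:**
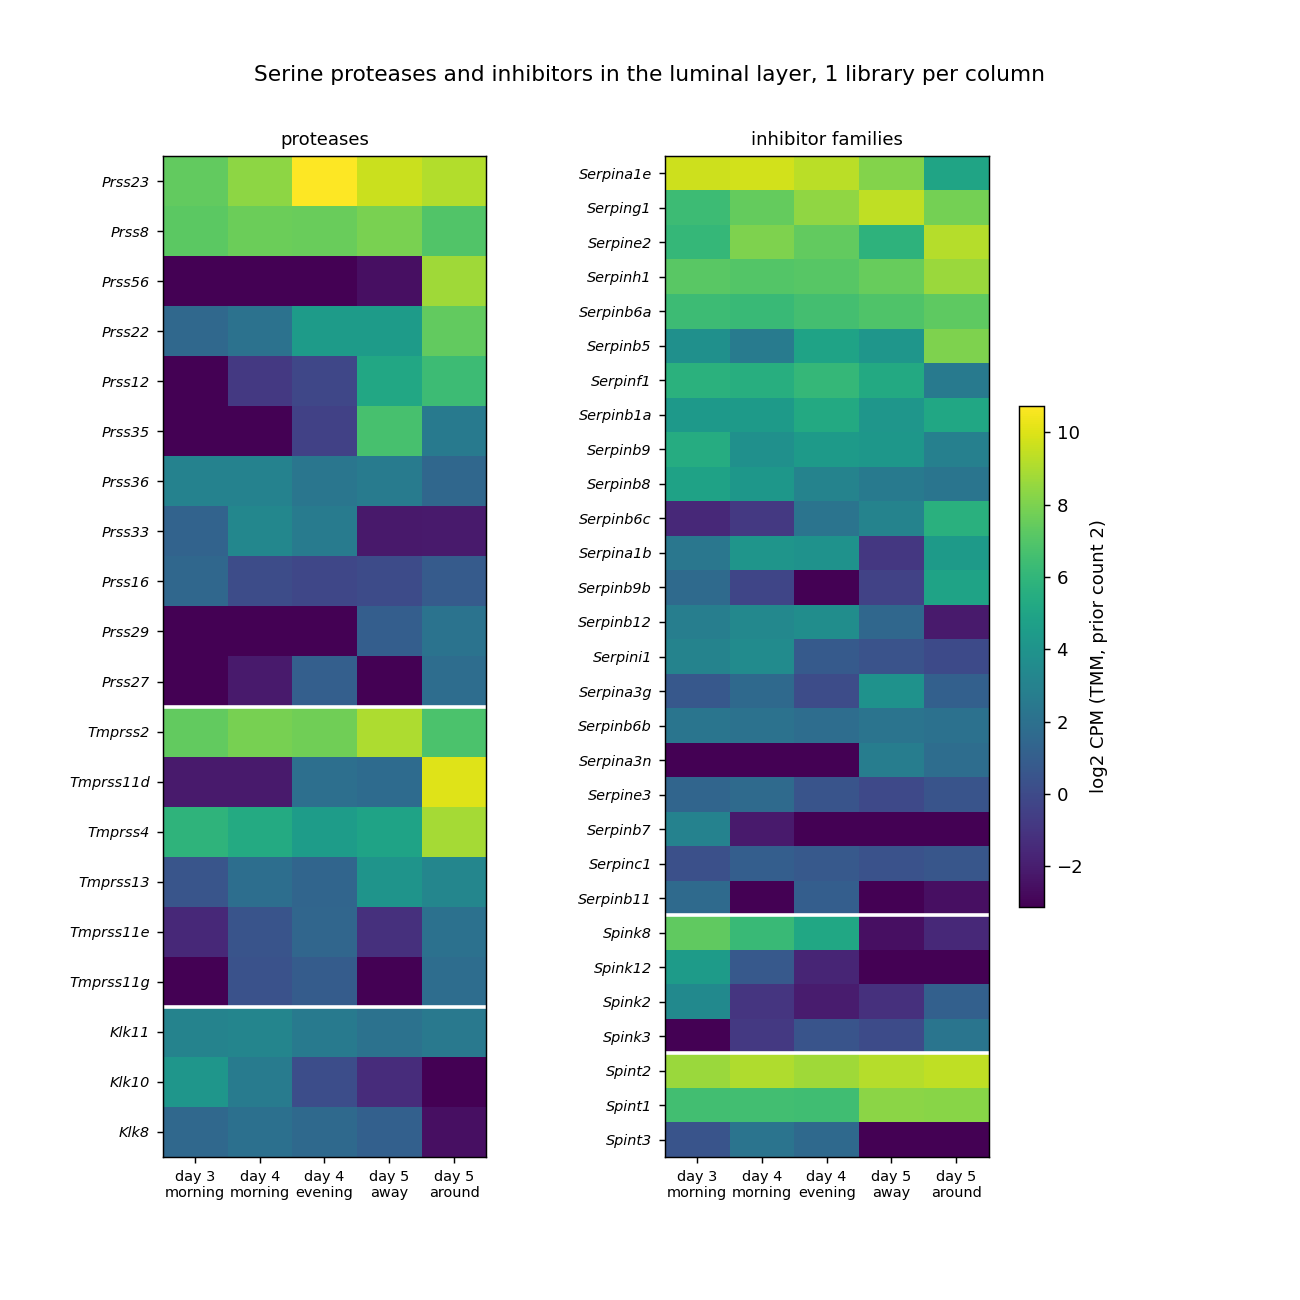
Log2 CPM (TMM, prior count 2) of 49 genes that passed the filter, 1 column per library, with proteases on the left and inhibitor families on the right, ordered within a family by mean CPM. Rows such as Prss56 and Tmprss11d are bright around the embryo and dark in the libraries of days 3 and 4, and Spink8 is bright on days 3 and 4 and dark in both day 5 libraries.

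Among the Prss genes, *Prss23*, a secreted protease found in many tissues, had the most counts in each library. In RPKM *Prss8* was above it on day 3 morning (79.9 against 52.5) and day 4 morning (105 against 102). Around the embryo *Prss56* was above it (218 against 173). *Prss23* had 2944, 5896, 26725, 14655 and 9622 counts. Its level was highest on day 4 evening and still above day 4 morning in both day 5 libraries. The log2 difference from day 4 morning was 2.36 in the evening (interval 2.32 to 2.40), 1.26 in the distant layer and 0.77 around the embryo. *Prss8* encodes prostasin, a membrane-anchored protease of epithelia that acts with matriptase and on sodium channels. *Prss8* was steady by comparison, with 2581, 3517, 3015, 4501 and 2174 counts and no call in the 5 comparisons. Around the embryo it stood at -0.93 against the layer away from it, and this passed the fold with total counts (-1.25). Exons of *Prss8* overlap *Kat8* on the opposite strand.

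*Prss56*, best known from the eye, where mutations shorten the eyeball, was counted in 1 condition almost alone. Its 5 counts were 0, 0, 0, 1 and 7489. The layer around the embryo is the high library and the other 4 are at or under the floor. Against day 4 morning it was at least 2603-fold higher there, and against the layer away from the embryo, which had 1 count, the log2 interval was 10.51 to 18.29. *Prss22*, a tryptase of epithelia, had 49, 76, 350, 419 and 2927 counts. It stepped up on day 4 evening, stayed there away from the embryo, and was highest around it. The log2 difference from day 4 morning was 2.36 in the evening, 2.38 in the distant layer and 5.29 around the embryo (interval 5.00 to 5.68).

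*Prss12* encodes neurotrypsin, a protease that cuts agrin and was found in neurons. Its counts were 0, 8, 12, 673 and 1402. Both day 5 libraries were far above the earlier 3. The ratio to day 4 morning was 81.0 away from the embryo (log2 interval 5.35 to 7.56) and 183 around it (6.53 to 8.73). Around the embryo it was higher than away by 1.17, and this call was lost with total counts (0.86). *Prss35*, which lacks the usual active-site serine, showed the opposite side of day 5. It had 0, 0, 10, 1941 and 100 counts, so that the layer away from the embryo was the high library. Away from the embryo it was at least 623-fold above day 4 morning, and around it at least 34.8-fold. The log2 difference between the day 5 layers was -4.14 (interval -4.47 to -3.87).

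The remaining Prss genes that passed had fewer counts. *Prss36*, which carries several protease domains in 1 chain, had 139, 144, 77, 116 and 46 counts and was lower around the embryo than on day 4 morning (-1.55). *Prss33* went from 171 counts on day 4 morning to 2 in each day 5 library, with log2 intervals of -9.53 to -4.60 and -9.41 to -4.48. *Prss16*, a protease of the thymus, ranged from 12 counts on day 4 evening to 47 on day 3 morning. *Prss27* was counted on day 4 evening (31) and around the embryo (59), with 2 counts on day 4 morning and 0 on day 3 and away from the embryo.

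*Prss28* and *Prss29* encode the implantation serine proteinases Isp1 and Isp2, known as products of uterine glands. *Prss28* had 0, 0, 0, 21 and 44 counts, and its mean lay under the filter. *Prss29*, which passed it, had 0, 0, 0, 35 and 74 counts. Both were at 0 through day 4 and counted in both day 5 libraries. *Prss29* was at least 11.2-fold above day 4 morning away from the embryo and at least 25.7-fold around it. The glandular marker *Foxa2* had 32, 51, 0, 2 and 21 counts and the 4 glandular markers listed summed to 271, 30.4, 42.6, 4.02 and 49.0 CPM, led by *Aldh1a1* on day 3 morning and *Sox9* around the embryo. That list includes *Lif*, which is also known from stroma near attached embryos and gave 304 of its 844 counts around the embryo, so the sum there is not a measure of glands alone. The part of glands in these values was not tested.

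The Tmprss genes encode proteases with a membrane anchor. *Tmprss2*, which also primes the entry proteins of respiratory viruses, had 2921, 4186, 3302, 9499 and 1895 counts. It was highest away from the embryo and lowest around it in CPM. Against day 4 morning it was higher away (1.13, interval 1.07 to 1.18) and lower around (-1.08), and the day 5 layers differed by -2.21. *Tmprss4*, known from its raised level in epithelial tumours, had 1020, 717, 363, 557 and 7872 counts. It was high around the embryo and between 22.9 and 58.7 CPM in the other 4. The log2 difference was 3.51 from day 4 morning and 3.93 from the layer away from the embryo (interval 3.81 to 4.06).

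*Tmprss11d*, the airway trypsin-like protease, had 2, 2, 58, 59 and 17944 counts. Day 4 evening and the layer away from the embryo were alike, and the layer around the embryo was far above both. The ratio between the day 5 layers was 329 (log2 interval 8.00 to 8.76), and against the 2 counts of day 4 morning the log2 interval was 11.34 to 16.24. At 1042 CPM it had the most counts of any member in its library. Other genes of its cluster were low. *Tmprss11e* had 4, 23, 42, 6 and 68 counts and *Tmprss11g* had 0, 21, 28, 0 and 60, both with day 4 evening and the layer around the embryo above the rest. *Tmprss13* had 23, 64, 39, 307 and 157 counts and was higher than on day 4 morning in both day 5 layers (2.17 away and 1.33 around). Its exons overlap *1700003G13Rik* on the opposite strand.

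Kallikreins act in skin, brain and glands, and few of them were counted here. Of 27 Klk genes 16 were at 0 everywhere and 3 passed the filter. *Klk11* had 146, 159, 93, 78 and 94 counts, with a call in the distant layer against day 4 morning (-1.06) that was lost with total counts (-0.79). *Klk10* was lower at each later time, with 302, 111, 16, 5 and 0 counts, and was at least 35.5-fold lower around the embryo than on day 4 morning. *Klk8*, or neuropsin, had between 39 and 69 counts in 4 libraries and 1 around the embryo, a log2 interval of -11.37 to -3.52 against day 4 morning. *Klk1*, the tissue kallikrein that frees kinins, had 0, 1, 2, 0 and 0 counts. The family as a whole summed to 28.8, 19.2, 10.4, 7.29 and 5.81 CPM.

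**Figure D3:**
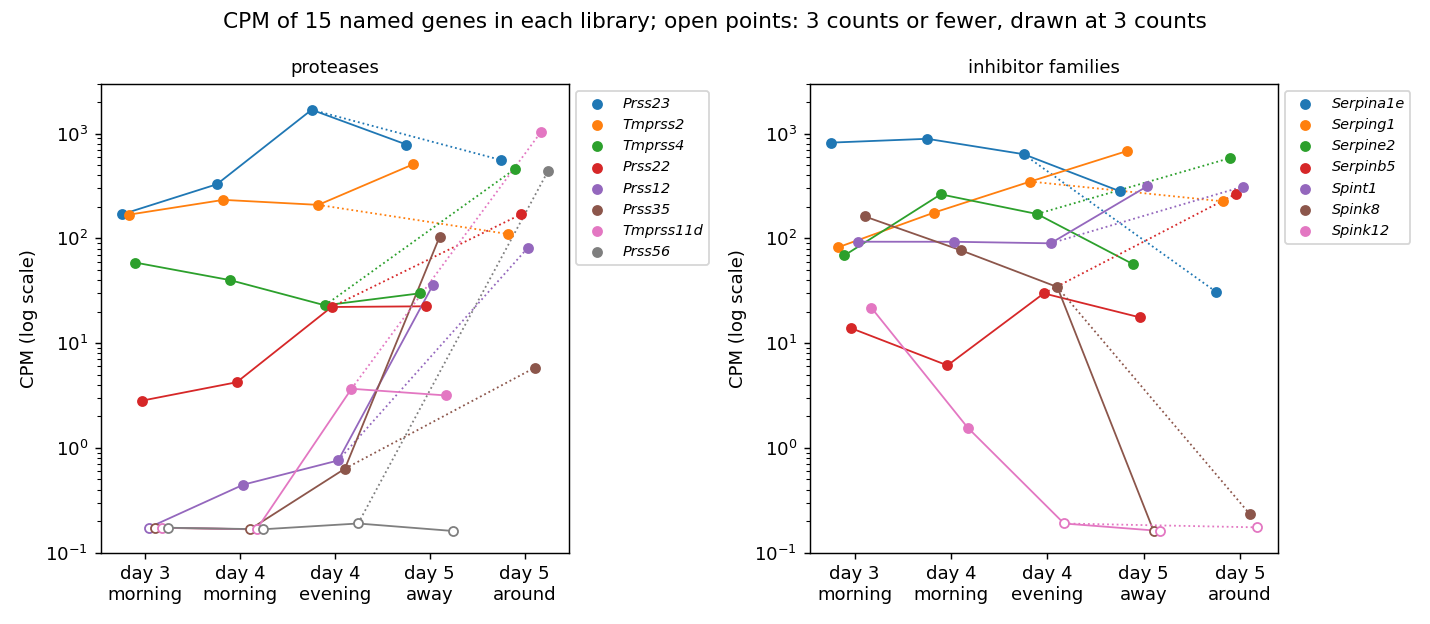
CPM on a log axis of 8 proteases (left) and 7 inhibitor genes (right) in each library, with solid lines through day 5 away from the embryo, dotted lines from day 4 evening to day 5 around the embryo, and open points for 3 counts or fewer, drawn at 3 counts. Tmprss11d reaches 1042 CPM and Prss56 435 CPM around the embryo, Prss35 reaches 104 CPM away from it, and Spink8 is an open point away from it after 162 CPM on day 3 morning.

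Among the serpins, *Serpine2*, or protease nexin, inhibits thrombin and the urokinase and tissue plasminogen activators. It had 1193, 4726, 2703, 1053 and 10042 counts. It was high on day 4 morning, low away from the embryo and highest around it. Against day 4 morning it was lower away from the embryo (-2.22, interval -2.32 to -2.12) and higher around it (1.15, interval 1.10 to 1.20), and the day 5 layers differed by 3.37. The call around the embryo was lost (1.00) with totals that leave out *Rn45s* and *Lars2*. *Serpine3* ranged from 16 counts away from the embryo to 55 on day 4 morning.

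Serpins of clade b stay mostly inside the cell and guard it against leaked or imported proteases. *Serpinb5*, or maspin, does not inhibit proteases itself and is known from breast and skin epithelium. It had 241, 110, 472, 328 and 4607 counts. It was lowest on day 4 morning and highest around the embryo, with log2 differences from day 4 morning of 2.26 in the evening, 1.50 in the distant layer and 5.42 around the embryo (interval 5.18 to 5.73). *Serpinb6c* had 4, 8, 71, 154 and 888 counts, more at each later time and more around the embryo than away, with a ratio of 116 between the embryo's layer and day 4 morning (log2 interval 5.87 to 8.07). *Serpinb9b* had 54, 13, 0, 12 and 510 counts and was likewise high around the embryo, 5.15 above day 4 morning (interval 4.57 to 6.27).

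The close relatives of these genes were flatter or moved the other way. *Serpinb6a*, which inhibits trypsin and cathepsin G, had 1432, 1383, 1495, 2279 and 2681 counts, just past the fold around the embryo (1.01) and within it with total counts (0.98). *Serpinb6b* ranged from 55 to 84 counts, with no call in any comparison. *Serpinb9*, an inhibitor of granzyme B, had 744, 257, 337, 338 and 129 counts, lower on day 4 morning than on day 3 (-1.57) and lower around the embryo than away (-1.26). *Serpinb1a*, an inhibitor of neutrophil elastase, had 341, 384, 615, 325 and 600 counts and differed between the day 5 layers by 0.99. *Serpinb8* had 498, 333, 132, 106 and 79 counts and was lower than on day 4 morning in each later library (-1.14, -1.69 and -1.99). *Serpinb12* had 121, 182, 201, 51 and 2 counts, so that it was high through day 4 and nearly gone around the embryo (log2 interval -9.50 to -4.57 against day 4 morning). *Serpinb7* was counted on day 3 morning (140 counts) and had 2 or fewer elsewhere. *Serpinb11* came and went, with 54 counts on day 3 morning, 30 on day 4 evening and at most 1 in the other 3 libraries.

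Clade a holds the antitrypsins and antichymotrypsins, which the liver secretes into blood in large amounts. *Serpina1e*, a mouse antitrypsin, had 14247, 16021, 10066, 5253 and 530 counts. It was among the highest of all members until day 4 evening and low around the embryo, with log2 differences from day 4 morning of -1.66 away (interval -1.71 to -1.62) and -4.85 around (interval -4.98 to -4.73). *Serpina1b* took another course, with 86, 311, 239, 8 and 362 counts. Here the layer away from the embryo was the low library, 5.28 below the layer around it in log2 terms (interval 4.62 to 6.84). *Serpina3n*, an antichymotrypsin that rises in inflammation, had 0, 0, 0, 123 and 60 counts and was at least 39.5-fold above day 4 morning away from the embryo. *Serpina3g* had 26, 53, 15, 285 and 35 counts and was likewise highest away from the embryo, by 2.33 over day 4 morning.

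These copies are hard to keep apart in a count table. Of the 50-base windows of the transcripts of *Serpina1e*, 34.6% also occurred in transcripts of another gene, *Serpina1d* above all, and for *Serpina1b* it was 29.5%. The share was 15.5% for *Serpina3g*, 9.92% for *Serpinb6c*, 5.38% for *Serpinb9b* and 0 for *Prss56*, *Prss22*, *Serpinb5*, *Spint1*, *Spint2* and *Spink8*. Some windows were shared most with a gene outside these families, 33.6% for *Serpinc1* (*Zbtb37*), 25.1% for *Serpinb6a* (*Nqo2*), 21.7% for *Klk8*, 21.2% for *Prss23* (*Prss23os*), 15.7% for *Serpine3* (*Ints6*) and 11.9% for *Tmprss4*. How reads that map to several genes were treated is not given in the sources used here. The split within the antitrypsin group is therefore uncertain. The windows came from all transcripts of a gene, which can extend beyond the exons counted. *Serpinc1* had 8736 windows against 2161 counted bases, and *Serpinb6a* 5728 against 1888. The counted exons of *Serpinc1* and *Serpine3* overlap those of no other gene. These shares are thus not shares of the counted sequence, and their effect on the counts was not tested. *Serpina1a*, *Serpina1c* and *Serpina1d* lay under the filter, with at most 27 counts in a library. *Serpina3g* shares exon bases with *Serpina3f* on the same strand, and *Serpinb6a* with *1110046J04Rik* on the opposite strand. The library kit does not mark the strand of the RNA, so reads of such opposite pairs cannot be told apart.

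The other serpins act in complement, matrix and clotting. *Serping1*, the C1 inhibitor that restrains complement and kallikrein, had 1421, 3163, 5518, 12690 and 3884 counts. Its level was higher in each library up to the distant layer of day 5, there 1.95 above day 4 morning (interval 1.89 to 2.01), and was lower around the embryo, by -1.59 between the day 5 layers. Its call from day 3 to day 4 morning (1.10) was lost with total counts (0.80). *Serpinh1*, a collagen chaperone and not an inhibitor, had 2475, 2298, 2226, 3362 and 6837 counts. It was flat until day 4 evening and higher around the embryo, by 1.63 over day 4 morning. *Serpinf1*, a factor that blocks vessel growth without inhibiting proteases, had 909, 831, 1093, 728 and 102 counts, and the layer around the embryo was the low library (-2.94, interval -3.28 to -2.67). The stromal genes *Dcn* (2033, 1288, 1304, 1709 and 242 counts) and *Lum* (1083, 985, 1220, 997 and 115 counts) were low in that library as well. Of the 9 stromal markers 4 were lower there than on day 4 morning, these 2 with *Col3a1* (-2.05) and *Col1a2* (-1.69), while *Hand2* (4.88) and *Col1a1* (1.61) were higher and *Vim*, *Pdgfra* and *Hoxa10* had no call. The part of stroma in the level of *Serpinf1* was not tested. *Serpini1*, or neuroserpin, had 142, 210, 26, 23 and 15 counts and was lower than on day 4 morning in the evening (-2.75) and in both day 5 layers (-3.13 away and -3.58 around). *Serpinc1*, the antithrombin, stayed between 19 and 34 counts.

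Spink genes encode Kazal inhibitors, small secreted proteins that block trypsin or acrosin. Their sum dropped from 195 CPM on day 3 morning to 79.5 and 36.0 CPM on day 4 and to 1.72 and 7.37 CPM on day 5. Through day 4 most of it was *Spink8*, with 2815, 1381, 543, 1 and 4 counts. It was lower at each step through day 4 and all but gone in both day 5 libraries, with log2 intervals against day 4 morning of -15.79 to -8.01 away from the embryo (1 count) and -10.25 to -7.01 around it (4 counts). *Spink12* had 378, 28, 3, 0 and 0 counts. *Spink2*, an acrosin inhibitor of the testis, had 190, 7, 2, 6 and 35 counts. All 3 genes were highest on day 3 morning. *Spink1*, the pancreatic trypsin inhibitor, is listed under its synonym *Spink3* and went the other way, with 0, 8, 20, 17 and 81 counts. Around the embryo it was 3.10 above day 4 morning (interval 2.35 to 4.66).

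Spint genes encode Kunitz inhibitors. *Spint1* and *Spint2* sit in the membrane of epithelial cells and inhibit matriptase, prostasin and the activator of hepatocyte growth factor. *Spint2* had 6827, 9820, 6885, 10897 and 11513 counts, high in each library with no call in the 5 comparisons. *Spint1* had 1613, 1666, 1419, 5839 and 5382 counts. It was level until day 4 evening and then alike in the day 5 layers, 1.75 above day 4 morning in each (intervals 1.68 to 1.83 and 1.67 to 1.83). In RPKM *Spint2* was at 375 and *Spint1* at 40.8 on day 4 morning, and at 458 and 137 around the embryo. *Spint3* had 22, 81, 47, 0 and 0 counts and was at least 28-fold below its day 4 morning level in the distant layer.

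Under the filter, 46 members had some counts. They were 8 Prss, 5 Tmprss, 8 Klk, 21 Serpin, 2 Spink and 2 Spint genes, and 7 of them reached 20 counts in a library. Besides *Prss28* and *Serpina1d* these were *Prss32* (55 counts around the embryo and at most 4 elsewhere), *Tmprss6* (49 on day 3 morning and 12 on day 4 morning), *Prss53* (11 to 28 counts in 4 libraries and 1 around the embryo), *Serpina3h* (26 away from the embryo) and *Serpina3f* (22 away from the embryo). The 66 genes without counts were 19 Prss, 6 Tmprss, 16 Klk, 19 Serpin and 6 Spink genes. A count of 0 allows up to 3 counts, which is 0.161 to 0.190 CPM in these libraries.

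Many members lie in tandem clusters. On chr7:43690418-44229617 (GRCm38), all 27 Klk genes lie side by side and 3 passed the filter. The serpin cluster on chr12:103616675-104414329 holds 24 genes, 4 of them passing, and that on chr13:32842092-34002794 holds 15, with 6 passing. On chr1:106861180-107608978 there are 12 Serpinb genes, where *Serpinb5* is highest around the embryo and its neighbours *Serpinb12*, *Serpinb7* and *Serpinb8* are low there. The Tmprss11 cluster on chr5:86231481-86745807 has 7 genes, 3 of them passing and each of these highest around the embryo. On chr17:23833361-24045949 lie *Prss33*, *Prss22*, *Prss27* and 4 more, and *Prss22* is highest around the embryo while *Prss33* is at 2 counts there. Trypsin and related genes at chr6:40514824-41525079 make up a group of 5 that were at 0 everywhere.

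Enzymes and receptors outside the name rule were read beside these genes. The lists are short, and their calls are to be set against the shares of all genes kept, 14.9% higher and 14.3% lower in the distant layer and 20.7% and 22.6% around the embryo. Membrane-bound proteases and substrates (13 genes, 10 kept) gave 5 higher and 2 lower in the distant layer than on day 4 morning, and 7 higher and 3 lower around the embryo. *St14*, which encodes matriptase, had 2203, 2189, 2524, 4377 and 7430 counts, and was 1.82 above day 4 morning around the embryo and 0.94 away from it. The matriptase substrate *Epcam* had 9667, 7016, 11760, 11848 and 26243 counts. *Met*, the receptor of hepatocyte growth factor, had 742, 289, 415, 2007 and 3464 counts, and was higher in both day 5 layers than on day 4 morning (2.73 and 3.63). So *St14*, *Met* and *Spint1* all had more CPM in both day 5 libraries than in the earlier 3. Not all genes of this list did so. *Hgf*, which encodes hepatocyte growth factor, had 16, 39, 68, 165 and 16 counts. Against day 4 morning it was higher away from the embryo (1.97) and lower around it (-1.13). *Hpn* had 122, 180, 86, 205 and 80 counts and was also lower around the embryo (-1.09). *Scnn1a*, a subunit of the sodium channel that prostasin acts on, had 206, 349, 126, 154 and 56 counts and was lower in each later library than on day 4 morning (-1.27, -1.22 and -2.54). The other subunits were highest around the embryo, *Scnn1b* with 43, 120, 88, 14 and 333 counts (1.52 above day 4 morning) and *Scnn1g*, under the filter, with 0, 0, 0, 7 and 70. Of the protease-activated receptors 2 of 4 were kept, and both were higher in both day 5 layers, *F2r* with 439, 532, 744, 2074 and 1637 counts and *F2rl1* with 441, 379, 532, 998 and 817.

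Plasminogen activation, the pathway that *Serpine2* restrains, had 8 of 9 genes kept, with 1 higher and 4 lower in the distant layer than on day 4 morning and 2 higher and 3 lower around the embryo. Around the embryo this is close to the share of all genes higher (20.7%), and with 8 genes nothing is read from the counts. *Plat*, the tissue activator, had 13075, 3889, 5377, 638 and 954 counts and was highest on day 3 morning. *Plau*, or urokinase, had 25, 4, 2, 9 and 60 counts and its receptor *Plaur* 30, 6, 46, 89 and 772, so that both were highest around the embryo, where *Serpine2* was highest too. *Plg* itself was at 0 in all 5 libraries. *Lrp2*, a receptor that takes up protease and serpin complexes, had 8608, 19086, 16302, 2054 and 252 counts, and *Plgrkt*, a plasminogen receptor, had 1576, 1733, 752, 165 and 93. Both were far lower on day 5. The pair that binds plasminogen at the cell surface, *Anxa2* and *S100a10*, had 4297, 3248, 2748, 946 and 5307 counts and 5409, 2556, 2307, 2148 and 3159 counts.

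The proprotein convertases and HtrA proteases (13 genes, 10 kept) gave 4 higher and 0 lower in the distant layer than on day 4 morning, and 3 higher and 2 lower around the embryo, the latter pair near the 20.7% and 22.6% of all genes. *Pcsk6* had 111, 3, 27, 2087 and 2043 counts, with log2 intervals against day 4 morning of 7.84 to 11.67 in the distant layer and 7.92 to 11.75 around the embryo. *Pcsk5* (45, 221, 242, 742 and 1561 counts) and *Furin* (874, 703, 657, 1065 and 1980 counts) were also higher around the embryo than on day 4 morning, while *Mbtps1* (1862, 2473, 1908, 2536 and 937 counts) was lower. *Htra1* had 403, 184, 179, 162 and 272 counts. The WAP-domain inhibitors (12 genes, 11 in the table and 7 kept) gave 1 higher and 2 lower in the distant layer and 1 higher and 5 lower around the embryo, against 20.7% and 22.6% of all genes there. The most abundant, *Wfdc2*, had no call, and *Slpi*, which inhibits elastase, had 22, 6, 0, 40 and 730 counts. *Eppin* had 254, 521, 387, 13 and 7 counts and *Wfdc1* 259, 599, 582, 377 and 58.

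Proteases of blood cells were scarce. Of 20 granule protease genes 4 were kept, led in the first 4 libraries by *Gzmb* with 158, 310, 197, 349 and 79 counts. *Gzmd* went the other way with 2, 2, 11, 8 and 81 counts and was 4.41 above day 4 morning around the embryo, and *Tpsab1*, *Tpsb2*, *Cma1* and *Mcpt4* were at 0 throughout. The 4 natural killer markers summed to 13.2, 27.3, 20.4, 17.2 and 2.03 CPM and the 6 leukocyte markers in the table to 303, 412, 355, 312 and 101 CPM, led by *Lyz2*. Both sums were lowest around the embryo, where *Serpinb9* was lowest, though the leukocyte marker *Cd68* was highest there (308, 180, 158, 220 and 670 counts). From day 3 to day 4 morning they went opposite ways. *Serpinb9* went from 42.8 to 14.3 CPM, while both sums were higher on day 4 morning. The part of these cells in the level of *Serpinb9* was not tested. The mast cell markers *Ms4a2* and *Fcer1a* were at 0 and *Cpa3* had 2 counts on day 3 morning alone, so that the sum of that list (1004, 2352, 2266, 618 and 200 CPM) came from *Hdc* and *Kit*. Endothelial markers summed to 12, 25.1, 30.0, 44.7 and 95.5 CPM, but most of the highest sum was *Cdh5* (133 counts away and 1229 around). *Kdr* (42 and 18) and *Emcn* (79 and 27) were lower around the embryo than away. Red cell genes were low, with *Alas2* at 34 counts or fewer. Coagulation and complement proteases (15 of 16 in the table, 4 kept) gave 1 higher (*C1ra*, 1.11) and 1 lower in the distant layer and 0 higher and 3 lower around the embryo, where 22.6% of all genes were lower. Among the 3 were *Cfb* (1105, 689, 627, 482 and 144 counts) and *Cfi* (719, 234, 253, 144 and 35).

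Promoters are shown for 4 members whose day 5 levels stood out, *Prss56* and *Tmprss11d* around the embryo, *Prss35* away from it and *Spint1* in both layers. RefSeq (GRCm38.p6) held promoter windows for 38 of the 50 genes that passed, 49 windows in all, each from 250 bases before to 50 bases after a transcript start. Capitals mark any match, on either strand, to 5 motifs. The STAT motif was searched as TTCNNNGAA and the AP-1 motif as TGACTCA. For the box bound by the general TATA factor the letters were TATAAA. The core of the progesterone receptor element was ACANNNTGT, and the last motif was the E-box, written CACGTG. In the windows shown no matches overlap. The windows are chr1:87183064-87183363 on the plus strand, chr5:86373338-86373637 on the minus strand, chr9:86743383-86743682 on the plus strand and chr2:119237110-119237409 on the plus strand. That of *Prss56* ends before the first exon base of the gene in the count table (87183493).
Prss56: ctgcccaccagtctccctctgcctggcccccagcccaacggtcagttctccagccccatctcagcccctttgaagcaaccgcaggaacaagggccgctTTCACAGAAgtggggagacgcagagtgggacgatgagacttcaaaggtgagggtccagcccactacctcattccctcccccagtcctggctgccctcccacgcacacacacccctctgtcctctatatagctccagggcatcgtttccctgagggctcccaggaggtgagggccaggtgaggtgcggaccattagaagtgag
Tmprss11d: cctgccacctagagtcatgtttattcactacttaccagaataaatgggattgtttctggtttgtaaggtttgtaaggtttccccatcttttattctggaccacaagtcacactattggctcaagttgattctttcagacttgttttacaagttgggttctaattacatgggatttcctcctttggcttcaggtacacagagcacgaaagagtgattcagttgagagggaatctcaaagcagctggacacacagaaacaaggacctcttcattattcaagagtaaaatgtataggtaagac
Prss35: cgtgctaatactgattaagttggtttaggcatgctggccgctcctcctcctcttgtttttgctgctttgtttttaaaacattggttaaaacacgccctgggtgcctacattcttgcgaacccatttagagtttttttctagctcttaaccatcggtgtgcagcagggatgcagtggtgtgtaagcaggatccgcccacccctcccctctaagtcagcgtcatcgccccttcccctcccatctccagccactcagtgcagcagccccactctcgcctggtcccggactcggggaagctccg
Spint1: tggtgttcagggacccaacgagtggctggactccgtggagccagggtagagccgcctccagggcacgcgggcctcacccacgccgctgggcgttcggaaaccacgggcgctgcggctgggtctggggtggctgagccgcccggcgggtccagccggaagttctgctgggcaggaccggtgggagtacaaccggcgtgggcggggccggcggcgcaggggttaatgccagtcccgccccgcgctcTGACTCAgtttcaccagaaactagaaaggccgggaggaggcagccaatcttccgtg
The STAT letters begin at base 99 of the *Prss56* window and the AP-1 letters at base 245 of that of *Spint1*, and no match to any of the 5 lies in the windows of *Tmprss11d* and *Prss35*. Among 32851 promoters of the mouse 8.30% held the STAT letters, 5.20% those of AP-1, 13.6% TATA, 6.85% the progesterone receptor core and 7.15% the E-box. In the 49 windows of the members these were 10.2%, 14.3%, 12.2%, 6.12% and 0%, and the 49 windows overlap where a gene has several starts. The genes with AP-1 letters were *Prss23*, *Prss36*, *Serpina1b*, *Serpinb7*, *Serpinb8* and *Spint1*, and their highest libraries are not alike. A match describes letters in a window and does not show that a factor binds there.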

How the data were processed

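RNA of laser-microdissected luminal layers was amplified by the authors with the SMART-seq v.4 kit and sequenced in pairs. According to the submitters' notes, reads were aligned to GRCm38/mm10 with HISAT2 and counted with featureCounts (Subread 2.0.0). The deposited table holds raw counts per gene, whole numbers without normalization, and 27 date-like gene names were kept as they stand. The annotation and the strand setting are not given in the sources used here.

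From these counts, library sizes were scaled by TMM in edgeR 4.0.16 (R 4.3.3), and log2 CPM used a prior count of 2. RPKM used the lengths in the table. The filter kept the 12915 of 23420 genes whose mean CPM over the libraries reached 1. A call is a log2 difference beyond 1 between 2 libraries. On simulated 8-fold changes between 2 libraries of 12915 genes, the calls found 199 of the changed genes, missed 1 and called 13 unchanged ones. The simulated counts were Poisson draws, with counting error only and no variation between animals, dissections or amplifications. The 13 are thus no measure of false calls in the real libraries. Changes near 2-fold were not simulated. Python 3.11.15, pandas 2.3.3, numpy 2.4.6, scipy 1.17.1 and matplotlib 3.10.9 were used, with sequences from RefSeq and transcripts from GENCODE vM21. Members and lists were chosen with earlier results of these data known.

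Every member with a mean of at least 5 CPM is named with its 5 counts, others that passed with a range or their most different libraries, and those under the filter from 20 counts in a library. Some genes are given whatever their level: *Prss28*, *Prss29*, *Spink1*, *Prss8*, *Prss35*, *Klk1*, *Serpine2*, *Spint1* and *Spint2*. Related genes are named from a mean of 10 CPM with a call in any comparison, or are given for their role whatever their level (*Plau*, *Plat*, *Plaur*, *St14*, *Furin*, *Pcsk5*, *F2rl1* and *Slpi*). After the values were seen *Scnn1b*, *Scnn1g*, *Hgf*, *Hpn*, *Gzmd* and *C1ra* were added, because they differ from other named genes of their lists. *Wfdc2*, *Plg*, 4 mast cell proteases at 0 and the marker genes of other cells were added to show the range of their lists. A single member that passed the filter and 1 related gene are included in the counts but not reported here by name. The alternatives were DESeq2 1.42.0 size factors, total counts, totals without *Rn45s* and *Lars2*, a prior count of 0.5, no filter, a mean of at least 5 CPM, and a fold beyond 4.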

Additional observations from a re-analysis of the deposited data

Results flagged for a closer look

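Of the members reported here 4 were called in opposite directions in the day 5 layers when each was set against day 4 morning. This is what drew attention to them. The share of all genes kept that were called so was not counted, so the number is not read as a trait of the members. *Tmprss2* was at 1.13 away from the embryo and at -1.08 around it on the log2 scale. *Serpine2* was at -2.22 away and 1.15 around, and the second call is lost (1.00) with totals that leave out *Rn45s* and *Lars2*. In the Tmprss11 cluster *Tmprss11e* was at -1.68 away and 1.54 around, and *Tmprss11g* at -3.48 away and 1.49 around. The -3.48 is set by the prior count, because *Tmprss11g* had 0 counts in the distant layer, and the bound against 3 counts is at least 7.27-fold lower. There is 1 library in each layer, both differences share the day 4 morning library, and the difference between the layers was not tested.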

How the results depend on the processing

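No paired analysis was possible because each condition has 1 library. Under the other scalings and the smaller prior count, every count of members called stayed within 1.5 times its value, and no value of a named gene that was called changed sign. The medians of the members moved with total counts, that between the day 5 layers from 0.28 to 0.02 and that of the distant layer from -0.18 to 0.02. Such a scaling moves all genes alike, so these moves are to be read beside those of all genes. Total counts shifted the median of all genes by -0.29 from day 3 to day 4 morning, by 0.28 from day 4 morning to day 5 away from the embryo and by -0.31 between the day 5 layers. Gene values crossed the fold in 40 of 1040 cases, 17 losing a call and 23 gaining one. The counts moved with the filter and the fold, by construction. The filter changes how many genes enter, and the fold changes how far a gene must differ to be called. Without a filter, over 162 genes, the higher and lower counts were 18 and 16 from day 3 to day 4 morning, 18 and 15 to the evening, 22 and 25 to the layer away from the embryo and 29 and 20 between the day 5 layers, with 31 and 24 around the embryo against day 4 morning. With a mean of at least 5 CPM, over 29 genes, they were 5 and 4 to day 4 morning, 6 and 3 to the evening, 11 and 7 to the distant layer, 14 and 7 to the embryo's layer, and 12 and 8 between these layers. Higher calls then outnumbered lower ones where the main counts were 10 and 10 (day 4 morning), 9 and 9 (evening) and 14 and 16 (away). With a fold beyond 4 they were 4 and 4 to day 4 morning, 8 and 4 to the evening, 9 and 9 to the distant layer, 15 and 10 to the embryo's layer, and 15 and 7 between these layers. For all genes the higher and lower shares follow, in the order day 4 morning, evening, distant layer, embryo's layer and between layers. Without a filter they were 7.2% and 11.5%, 8.25% and 7.06%, 12.2% and 11.4%, 18.5% and 16.3%, and 13.3% and 11.7%. At 5 CPM they were 5.44% and 8.39%, 5.29% and 4.47%, 13.3% and 12.5%, 19% and 19.9%, and 11.3% and 12.2%. Beyond 4-fold they were 1.19% and 4.11%, 2.38% and 1.39%, 5.75% and 5.8%, 10.5% and 10%, and 5.86% and 4.96%. Depth limits genes such as *Prss27* and *Spink3*, whose ratios rest on few counts in a library.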

Other observations

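Some members under the filter had counts in few libraries, and those given here were picked after their values were seen. *Serpinb2*, an inhibitor of urokinase, had 16 counts around the embryo and 0 in the other 4 libraries. *Serpinb1b* had 18, 0, 4, 0 and 0 counts and *Serpinb3c* had 4, 11, 0, 0 and 0. *Prss30* had 0, 11, 8, 2 and 2 counts. *Serpina9* reached 10 counts on the evening of day 4, with 2 or fewer in the rest.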
